A study of Homo sapiens with 12 samples.

Results

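The genes described here encode chaperones and folding enzymes of the endoplasmic reticulum (ER), together with XBP1, a transcription factor of the unfolded protein response. They are the 10 genes HSPA5, DNAJB9, SDF2L1, HSP90B1, PDIA3, PDIA4, PDIA6, CALR, CANX and XBP1, matched by symbol in both deposited count tables, each of which lists 60648 genes. All 10 passed the filter on low counts in both tables, with at least 150 counts in every library for DNAJB9, the scarcest of them per length of transcript. The cells were MOLM13 and OCIAML5, human acute myeloid leukemia lines, and mRNA was sequenced in 12 libraries forming 6 groups of 2. The groups were MOLM13 with a hairpin against the paraspeckle RNA-binding protein PSPC1, and MOLM13 with a control hairpin; OCIAML5 with a PSPC1 hairpin and OCIAML5 with a control hairpin; and, in an experiment with its own controls, OCIAML5 with a hairpin against PU.1, a transcription factor of myeloid cells that SPI1 encodes, and OCIAML5 with a control hairpin. Every group carried lentivirus, and the infected cells were kept by puromycin or by sorting for GFP, without a statement of which was used for which group. MOLM13 grew in 10% serum and OCIAML5 in another medium with 20% serum and GM-CSF, a myeloid growth factor, at 10 ng/mL. The labels leave unsaid whether libraries of 1 group were separate cultures or carried different hairpins, so p-values measure only how these libraries spread, and that spread may be technical.

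Proteins that enter the secretory pathway fold in the ER with the help of HSP70 and HSP90 chaperones, protein disulfide isomerases, and lectins that hold glycoproteins until they are folded. When unfolded protein builds up, the membrane sensors IRE1, PERK and ATF6 are released from the chaperone BiP and start the unfolded protein response: IRE1 splices XBP1 mRNA into the form that encodes an active factor, cleaved ATF6 enters the nucleus, and PERK slows translation and raises ATF4. ATF6 and XBP1 bind ER stress response elements in the promoters of chaperone genes. Splicing of XBP1 and protein levels were not analysed here.

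Promoters were read first, because these elements are what many of the genes are known to share. RefSeq (GRCh38.p14) gave the 250 bases before the annotated start for 9 of the 10 genes, PDIA3 having no entry. The ER stress response element was searched on both strands as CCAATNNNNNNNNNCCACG, its relative ERSE-II as ATTGG and CCACG with 1 free base between, and the unfolded protein response element as TGACGTGG. The first of these occurred in 6 of the 9 genes, against 0.0916% of the 27303 genes in the promoter table. Since many of the genes were already known to share the element, this is a description and not a test. ERSE-II occurred in 1 of the 9, against 0.0659%, and the unfolded protein response element in 0 of the 9, against 0.78%. The promoters of HSPA5, CALR and XBP1 are shown in full, since these genes moved in different ways, with the element in capitals. HSPA5 lies on the minus strand (chr9:125241344-125241593), CALR on the plus strand (chr19:12938359-12938608) and XBP1 on the minus strand (chr22:28800570-28800819).
HSPA5: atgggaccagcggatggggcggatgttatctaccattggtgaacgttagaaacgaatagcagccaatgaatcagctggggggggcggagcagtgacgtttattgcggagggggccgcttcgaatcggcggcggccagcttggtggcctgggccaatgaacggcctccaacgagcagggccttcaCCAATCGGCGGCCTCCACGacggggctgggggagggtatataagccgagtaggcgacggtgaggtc
CALR: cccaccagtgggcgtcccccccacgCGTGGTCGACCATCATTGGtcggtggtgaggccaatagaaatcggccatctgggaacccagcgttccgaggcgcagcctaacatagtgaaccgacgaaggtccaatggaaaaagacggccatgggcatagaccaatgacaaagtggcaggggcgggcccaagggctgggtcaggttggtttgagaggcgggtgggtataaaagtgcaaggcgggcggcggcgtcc
XBP1: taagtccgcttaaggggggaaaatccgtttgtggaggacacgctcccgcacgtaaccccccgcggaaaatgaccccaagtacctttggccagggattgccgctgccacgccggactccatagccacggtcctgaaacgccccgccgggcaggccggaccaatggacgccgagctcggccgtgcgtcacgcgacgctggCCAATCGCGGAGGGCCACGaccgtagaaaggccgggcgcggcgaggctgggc

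The matches are shown with the fixed bases in capitals and the 9 free bases of the ER stress response element in lower case, so that the parts that differ between genes can be read off. Where the element lies on the strand opposite to the gene, the line reads its reverse complement.
HSPA5, chr9:125241391-125241409: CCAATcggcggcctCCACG
HSP90B1, chr12:103930216-103930234: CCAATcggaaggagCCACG
HSP90B1 (opposite strand), chr12:103930321-103930339: CGTGGtgcggcgcgATTGG
PDIA6, chr2:10812853-10812871: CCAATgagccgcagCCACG
CALR (opposite strand), chr19:12938384-12938402: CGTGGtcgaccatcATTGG
CANX, chr5:179698778-179698796: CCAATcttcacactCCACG
XBP1, chr22:28800603-28800621: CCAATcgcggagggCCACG
SDF2L1 (opposite strand), ERSE-II, chr22:21642114-21642124: CGTGGaCCAAT
The nearest base of the element lay 48 bases before the start in HSPA5, 34 in XBP1, 68 in PDIA6, 71 and 176 in HSP90B1, 133 in CANX, 178 in SDF2L1 and 207 in CALR. In PDIA6 it belonged to the second of the annotated starts. DNAJB9 and PDIA4 held no match to these letters in this window, which says nothing of the factors elsewhere.

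**Figure D1:**
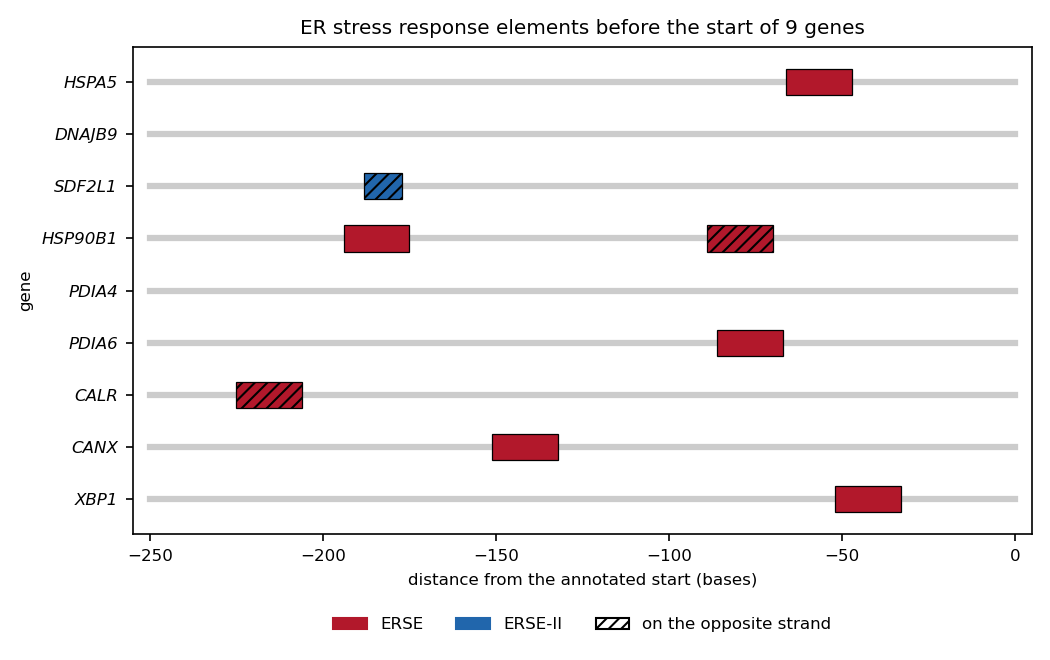
Position of each ER stress response element (red) and ERSE-II (blue) in the 250 bases before the annotated start of 9 genes, with distance from the start in bases on the x axis and hatching for the opposite strand. HSP90B1 carries 2 elements, and DNAJB9 and PDIA4 carry none in this window. Genes with several annotated starts are drawn at the first that carries an element.

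Libraries held 15.4 to 22.8 M counts in the table of the PSPC1 experiment and 26.3 to 39.7 M in that of the PU.1 experiment. Levels are given as CPM, that is, counts relative to the TMM-scaled library size. They are relative: fewer cells of a type and less RNA per cell cannot be told apart. The targeted genes were lower in every knockdown library, PSPC1 at 20.7% of control in MOLM13 and 19.2% in OCIAML5, and SPI1 at 21.7% in the PU.1 experiment. Of 8 myeloid markers 7 had counts in every library, and 6 exceeded 1 CPM in every library. The 8 summed to 1444 and 1453 CPM in MOLM13 PSPC1 knockdown against 1040 and 1028 CPM in its controls. In OCIAML5 they summed to 1165 and 1165 CPM in PSPC1 knockdown against 828 and 811 CPM in controls. In the PU.1 experiment the sum, which includes SPI1, was 576 and 553 CPM in knockdown against 779 and 758 CPM in controls. MPO was at 0.22 CPM in its lowest library, and CD68 reached 0.325 CPM at most and was at 0 in 6 libraries. No erythroid or epithelial marker exceeded 1.71 CPM. The summed T and NK lymphocyte markers were at 20.8 to 21.6 CPM in MOLM13 PSPC1 knockdown against 64.6 to 67.5 CPM in its controls, and the summed B lymphocyte and plasma cell markers at 2.97 to 3.19 CPM in that knockdown against 3.38 to 4.05 CPM in its controls. In OCIAML5 the T and NK list summed to 1.89 to 2.16 CPM in PSPC1 knockdown against 2.91 to 3.28 CPM in controls. The B lymphocyte and plasma cell list summed to 14 to 14.7 CPM in that knockdown against 23.2 to 25.3 CPM in controls. In the PU.1 experiment the T and NK list summed to 12.1 to 14.1 CPM in knockdown against 2.11 to 2.82 CPM in controls. The B lymphocyte and plasma cell list summed to 1.33 to 1.56 CPM in knockdown against 5.51 to 5.77 CPM in controls. Of these 12 lymphoid genes only NKG7, TRAC and PAX5 exceeded 5 CPM in any library, and MS4A1 was at 0 in all 12 libraries. Mitochondrially encoded genes took 12.4% of counts in MOLM13 PSPC1 knockdown against 9.59% in controls, 14.3% in OCIAML5 PSPC1 knockdown against 11.4% in controls, and 10.2% in PU.1 knockdown against 9.97% in controls. The part of these levels and shares in the results was not tested.

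Per kilobase of exon, CALR was the most abundant of the 10 genes in all 6 groups and DNAJB9 the scarcest. CALR, the calcium-binding lectin calreticulin, stood at 224 ± 1.7 CPM per kb in MOLM13 PSPC1 knockdown against 475 ± 1.5 in its controls, at 338 ± 2.5 in OCIAML5 PSPC1 knockdown against 296 ± 7.6 in its controls, and at 1194 ± 20 in PU.1 knockdown against 571 ± 8.7 in its controls (SD, n = 2). XBP1 ranked the seventh in MOLM13 PSPC1 knockdown (35.5 ± 0.47 CPM per kb) and the third in its controls (140 ± 0.5). In those controls XBP1, HSP90B1 (133 ± 2.5) and HSPA5 (123 ± 3.6) were close neighbours. After PSPC1 knockdown in MOLM13, XBP1 and PDIA6 (37.2 ± 1.4) were neighbours whose ranges of mean ± SD overlapped. HSPA5, which encodes BiP, the main ER chaperone of the HSP70 family, ranked the second in OCIAML5 PSPC1 knockdown (182 ± 2.1 CPM per kb) and the fifth in the controls of that experiment (111 ± 0.68). HSP90B1 (134 ± 1.8) and XBP1 (137 ± 2.6) were neighbours in those controls, and their ranges of mean ± SD overlapped. DNAJB9 stood between 2.94 and 7.06 CPM per kb over the 6 groups.

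**Figure D2:**
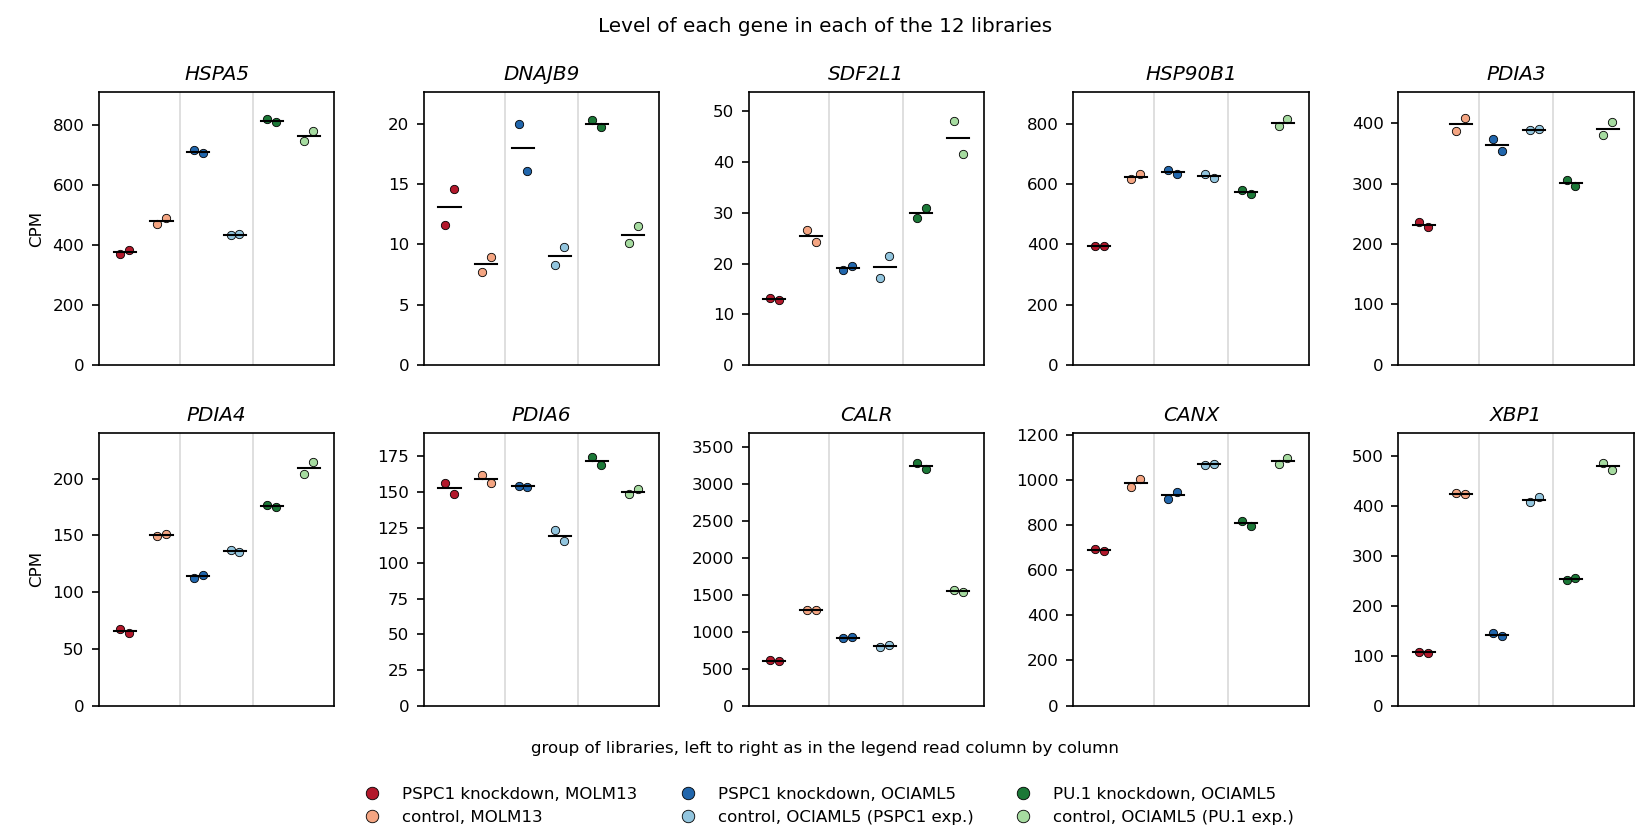
Level in CPM of each gene in each of the 12 libraries, with the knockdown group left of its control. XBP1 lies lower in all knockdown libraries than in all control libraries, and CALR lies lower after PSPC1 knockdown in MOLM13 but higher after PU.1 knockdown in OCIAML5.

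The first comparison asked what PSPC1 knockdown does to these genes in MOLM13. Of the 10, 8 were lower, 1 was higher and 1 did not pass an adjusted p of 0.05, with a median log2 fold change of -0.72. Over all 16457 genes tested, 57% were called, 27.6% higher and 29.5% lower, and the median was 0.01. XBP1 fell most, at 108 and 106 CPM in knockdown cells against 426 and 424 CPM in control cells, and its 2 groups lie far apart. Its log2 fold change was -1.98 ± 0.047 (SE; adjusted p = 3.2e-36 by edgeR's quasi-likelihood test with Benjamini-Hochberg adjustment, used for all adjusted p-values here), so that 25.3% of its control level remained.

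Both HSP70 and HSP90 chaperones of the ER were lower. HSPA5 was at 370 and 383 CPM in knockdown cells against 470 and 490 CPM in control cells, a log2 fold change of -0.35 ± 0.041 (adjusted p = 2.8e-10). SDF2L1, an ER protein that works with BiP and its J-domain cochaperones, was at 13.1 and 12.9 CPM in knockdown cells against 26.6 and 24.3 CPM in control cells, a change of -0.97 ± 0.13 (adjusted p = 8.2e-09). HSP90B1, the ER member of the HSP90 family also called GRP94, was at 396 and 396 CPM in knockdown cells against 617 and 633 CPM in control cells (-0.66 ± 0.04, adjusted p = 9.1e-20). In each of these genes both knockdown libraries lay below both controls. DNAJB9, a J-domain partner of BiP that is a known XBP1 target, went the other way, at 11.6 and 14.6 CPM in knockdown cells against 7.72 and 8.96 CPM in control cells (0.66 ± 0.17, adjusted p = 7.4e-04).

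The protein disulfide isomerases, which form and reshuffle disulfide bonds, did not move alike. PDIA4 was at 67.5 and 63.7 CPM in knockdown cells against 149 and 152 CPM in control cells (log2 fold change -1.20 ± 0.057, adjusted p = 6.1e-24). PDIA3, the isomerase that works with calreticulin and calnexin, was at 237 and 227 CPM in knockdown cells against 387 and 408 CPM in control cells (-0.78 ± 0.044, adjusted p = 7.6e-21). PDIA6 was at 157 and 149 CPM in knockdown cells and 162 and 157 CPM in control cells, and the change did not pass (-0.06, 95% interval -0.17 to 0.04, adjusted p = 0.31). So 2 of the 3 isomerases fell. Both lectins fell too. CALR was at 612 and 605 CPM in knockdown cells against 1287 and 1293 CPM in control cells (-1.08 ± 0.038, adjusted p = 3.5e-29), and CANX, the membrane-bound lectin calnexin, at 695 and 685 CPM in knockdown cells against 966 and 1001 CPM in control cells (-0.51 ± 0.038, adjusted p = 2e-16). Together the 10 genes took 0.263% of counts in knockdown cells and 0.436% in control cells. In OCIAML5 their share was higher with knockdown, at 0.423% after PSPC1 knockdown against 0.400% in its controls. After PU.1 knockdown it was 0.673% against 0.520% in the controls of that experiment.

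The same hairpin target in OCIAML5 gave another picture. Of the 10 genes 4 were higher, 3 lower and 3 not called, with a median log2 fold change of 0.01, against 56% of all genes called, 27.5% higher and 28.4% lower. HSPA5 was at 718 and 707 CPM in knockdown cells against 432 and 436 CPM in control cells, a log2 fold change of 0.72 ± 0.041 (adjusted p = 6e-21). DNAJB9 was at 20 and 16.1 CPM in knockdown cells against 8.26 and 9.8 CPM in control cells (1.01 ± 0.16, adjusted p = 4.8e-07). In both genes the knockdown libraries lay above the controls, so BiP and its partner DNAJB9 were both higher. PDIA6 was at 154 and 154 CPM in knockdown cells against 123 and 115 CPM in control cells (0.37 ± 0.052, adjusted p = 3.2e-08). CALR was at 912 and 921 CPM in knockdown cells against 790 and 819 CPM in control cells, a small rise of 0.19 ± 0.038 (adjusted p = 3.1e-05).

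Lower in OCIAML5 were XBP1, PDIA4 and CANX, all of which had also fallen in MOLM13. XBP1 was at 146 and 139 CPM in knockdown cells against 408 and 419 CPM in control cells (log2 fold change -1.54 ± 0.045, adjusted p = 2.3e-32), which left 34.5% of the control level. PDIA4 was at 113 and 115 CPM in knockdown cells against 137 and 135 CPM in control cells (-0.26 ± 0.054, adjusted p = 5.5e-05), and CANX at 916 and 945 CPM in knockdown cells against 1067 and 1072 CPM in control cells (-0.20 ± 0.038, adjusted p = 1.1e-05). In all 3 genes both knockdown libraries lay below both controls. For the other 3 the change was not called. SDF2L1 was at 18.7 and 19.6 CPM in knockdown cells and 17.2 and 21.4 CPM in control cells, where the controls enclose the knockdown libraries (-0.01, 95% interval -0.26 to 0.24, adjusted p = 0.97). HSP90B1 was at 649 and 635 CPM in knockdown cells and 633 and 621 CPM in control cells (0.03, interval -0.05 to 0.11, adjusted p = 0.49), and it passed as higher when libraries were scaled by size alone (0.12, adjusted p = 0.011). PDIA3 was at 374 and 354 CPM in knockdown cells and 388 and 389 CPM in control cells (-0.09, interval -0.18 to -0.01, adjusted p = 0.065), and it passed as lower without knockdown replicate 1 (adjusted p = 0.036) and without control replicate 1 (0.046) or control replicate 2 (0.049).

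**Figure D3:**
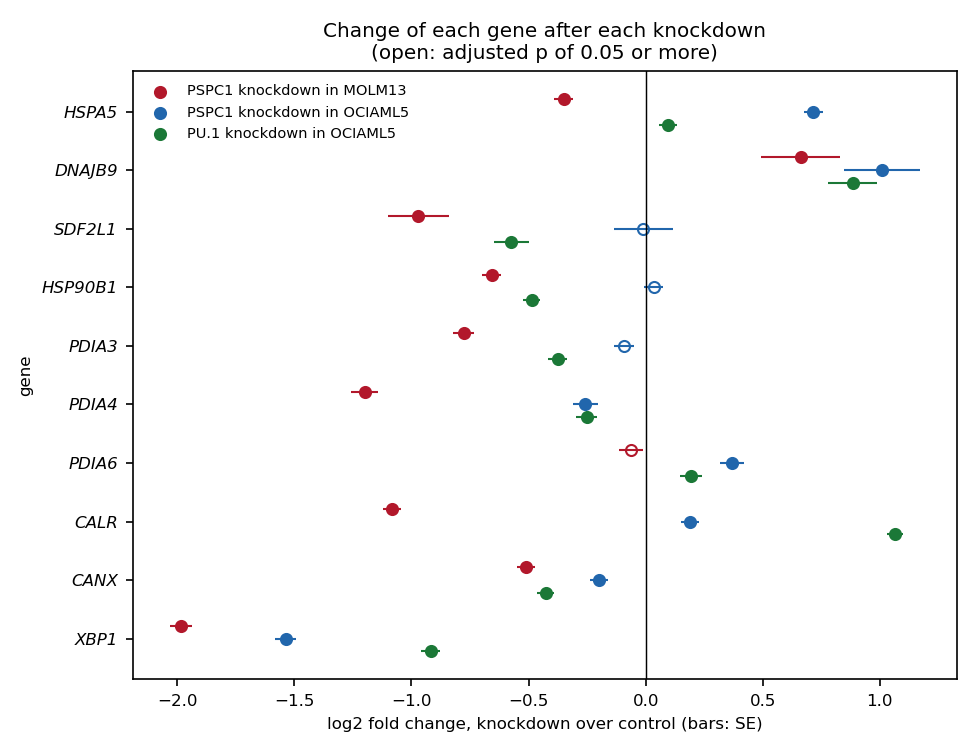
Log2 fold change of each gene after each knockdown with its standard error, filled where the adjusted p was below 0.05 and open where it was not. XBP1 lies farthest below zero of the 10 genes in each of the 3 knockdowns, and DNAJB9 is the only gene called higher in all 3.

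Whether the lines differed was tested as an interaction, MOLM13 minus OCIAML5. The genes were chosen with earlier results of these data known, opposite directions in the lines for some among them. The count below thus describes these genes and is not independent evidence that the lines differ. The change was lower in MOLM13 for 9 of the 10 genes, higher for 0 and not called for DNAJB9, with a median of -0.69. Of all genes tested 30.5% were called in this test, 12.5% higher and 18% lower, and their median was -0.06. The difference was -1.27 ± 0.054 for CALR (adjusted p = 1e-24) and -1.06 ± 0.058 for HSPA5 (adjusted p = 1.4e-20), and these are the 2 genes that fell in MOLM13 and rose in OCIAML5. For SDF2L1 it was -0.96 ± 0.18 (adjusted p = 3.1e-05) and for PDIA4 -0.94 ± 0.079 (adjusted p = 6.3e-14). The effect of the knockdown was thus stronger downward in MOLM13 even for genes that fell in both lines: the difference was -0.45 ± 0.065 for XBP1 (adjusted p = 2.3e-07) and -0.31 ± 0.054 for CANX (adjusted p = 8.2e-06). HSP90B1 and PDIA3 differed by -0.69 ± 0.056 and -0.68 ± 0.062, and PDIA6 by -0.43 ± 0.073 (adjusted p = 2.5e-14, 7.6e-13 and 5.2e-06). DNAJB9 differed by -0.35 (95% interval -0.82 to 0.12, adjusted p = 0.29), an interval that holds a zero difference and one larger than that of XBP1.

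**Figure D4:**
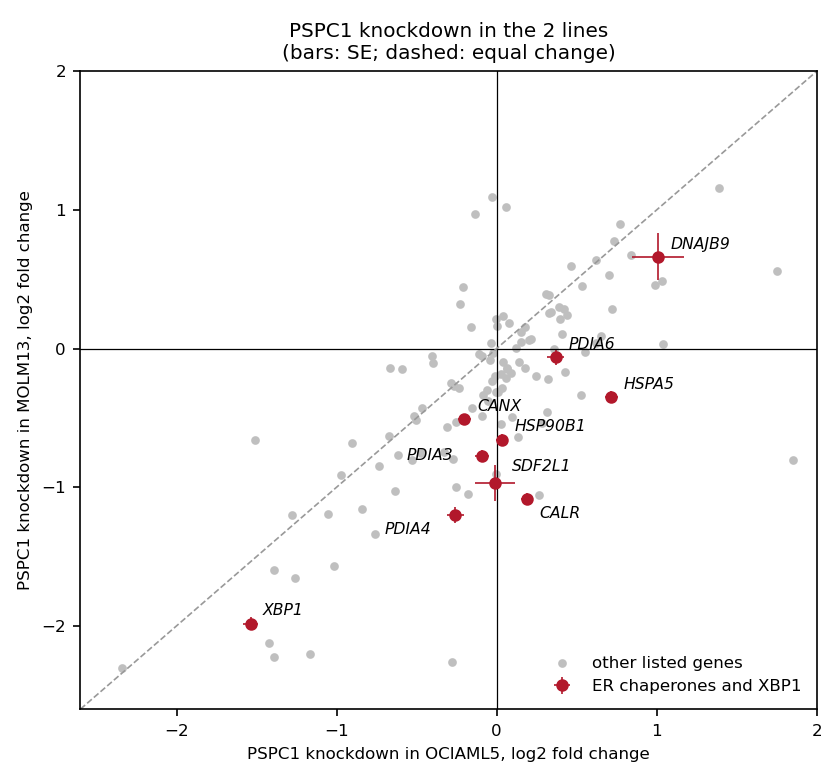
Log2 fold change after PSPC1 knockdown in OCIAML5 (x axis) and MOLM13 (y axis), with standard errors for the 10 genes, grey points for the other secretory pathway genes listed and a dashed line of equal change. All 10 genes lie below the line of equal change, and HSPA5 and CALR lie in the quadrant of a rise in OCIAML5 and a fall in MOLM13; 1 other gene lies outside the axes.

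In control cells of the PSPC1 experiment, MOLM13 minus OCIAML5 was higher for 5 of the 10 genes, lower for 1 and not called for 4, against 60.6% of all genes called, 30% higher and 30.7% lower. Without MOLM13 control replicate 1 the counts were 3 higher and 0 lower. CALR was at 1287 and 1293 CPM in MOLM13 controls and 790 and 819 CPM in OCIAML5 controls, a log2 difference of 0.68 ± 0.038 (adjusted p = 1.7e-21). PDIA6 differed by 0.42 ± 0.052 (adjusted p = 1.3e-09). For XBP1 the difference was 0.04 (95% interval -0.05 to 0.13, adjusted p = 0.44). HSPA5 was 0.14 ± 0.041 higher in MOLM13 controls (adjusted p = 0.002, and 0.053 with library size alone), although it stood below OCIAML5 once PSPC1 was knocked down, at 370 and 383 CPM in MOLM13 against 718 and 707 CPM in OCIAML5. Line, medium and serum differ together and cannot be told apart.

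PU.1 knockdown in OCIAML5 changed all 10 genes, 4 upward and 6 downward, with a median log2 fold change of -0.31, against 60.4% of all 16861 genes called, 29.6% higher and 30.9% lower. CALR rose most. It was at 3278 and 3201 CPM in PU.1 knockdown cells against 1566 and 1533 CPM in control cells, a log2 fold change of 1.06 ± 0.035 (adjusted p = 1.7e-38), or 2.09-fold. DNAJB9 was at 20.3 and 19.8 CPM in knockdown cells against 10.1 and 11.5 CPM in control cells (0.88 ± 0.11, adjusted p = 3e-11). PDIA6 was at 174 and 169 CPM in knockdown cells against 148 and 152 CPM in control cells (0.19 ± 0.046, adjusted p = 1.8e-04). Each of these 3 genes had both knockdown libraries above both controls. For HSPA5 the levels were 820 and 812 CPM in knockdown cells against 748 and 779 CPM in control cells, and the change was slight (0.10 ± 0.037, adjusted p = 0.022). Its call was lost without a filter on low counts (adjusted p = 0.057), with the replicate number as a block (0.068), and without knockdown replicate 1 (0.17), knockdown replicate 2 (0.091) or control replicate 1 (0.4).

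Lower after PU.1 knockdown were XBP1, SDF2L1, HSP90B1, CANX, PDIA3 and PDIA4. XBP1 was at 252 and 256 CPM in knockdown cells against 487 and 472 CPM in control cells (log2 fold change -0.92 ± 0.04, adjusted p = 3.6e-31). SDF2L1 was at 29 and 30.9 CPM in knockdown cells against 48 and 41.5 CPM in control cells (-0.57 ± 0.074, adjusted p = 4.2e-10), and HSP90B1 at 581 and 567 CPM in knockdown cells against 792 and 817 CPM in control cells (-0.49 ± 0.038, adjusted p = 1e-18). The knockdown libraries lay below the controls in each of them. CANX was at 818 and 795 CPM in knockdown cells against 1071 and 1097 CPM in control cells (-0.43 ± 0.037, adjusted p = 1.1e-16). PDIA3 was at 307 and 296 CPM in knockdown cells against 380 and 401 CPM in control cells (-0.38 ± 0.041, adjusted p = 1.2e-12), and PDIA4 at 177 and 175 CPM in knockdown cells against 204 and 215 CPM in control cells (-0.25 ± 0.044, adjusted p = 1e-06). The 2 lectins thus parted, calreticulin rising while calnexin fell. PSPC1 itself stood at 53.8% of control after PU.1 knockdown.

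In OCIAML5 the knockdowns were compared by an interaction, PU.1 minus PSPC1, each against its own controls. Of the 10 genes 2 moved higher with PU.1 knockdown, 5 lower and 3 were not called, against 45.6% of all 17159 genes called, 22.8% higher and 22.9% lower. The difference was 0.89 ± 0.055 for CALR (adjusted p = 1.4e-18) and 0.64 ± 0.063 for XBP1 (adjusted p = 8.1e-12), whose fall was deeper after PSPC1 knockdown. It was -0.60 ± 0.058 for HSPA5 (adjusted p = 2.8e-12), -0.55 ± 0.14 for SDF2L1 (adjusted p = 0.0011) and -0.50 ± 0.057 for HSP90B1 (adjusted p = 3.7e-10), which are chaperones that had risen or not passed after PSPC1 knockdown. PDIA3 and CANX differed by -0.27 ± 0.063 and -0.21 ± 0.056 (adjusted p = 4.1e-04 and 0.0017). DNAJB9 differed by -0.11 (95% interval -0.48 to 0.26), PDIA4 by 0.02 (-0.12 to 0.16) and PDIA6 by -0.16 (-0.30 to -0.02, adjusted p = 0.061, and 0.039 without PSPC1-experiment control replicate 1).

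The controls of the 2 OCIAML5 experiments were not at the same level. With all 8 OCIAML5 libraries on a common scale, 7 of the 10 genes were higher in PU.1-experiment controls, 0 were lower and 3 were not called, against 38.9% of all genes called, 20% higher and 18.9% lower. HSPA5 stood at 740 and 773 CPM in PU.1-experiment controls against 449 and 455 CPM in PSPC1-experiment controls, a log2 difference of 0.74 ± 0.041 (adjusted p = 7.9e-20). On that scale the PSPC1 knockdown libraries stood at 741 and 725 CPM, within or below the range of the PU.1 experiment's controls. SDF2L1 differed by 1.15 ± 0.099 (adjusted p = 2.8e-13) and CALR by 0.87 ± 0.039 (adjusted p = 2.7e-23). XBP1 differed by 0.14 ± 0.043 (adjusted p = 0.0066), a call that was lost with the replicate block (0.062), without replicate 1 of the PSPC1-experiment controls (0.053) and without replicate 1 of the PU.1-experiment controls (0.076). CHAC1, a target of ATF4, was at 0.596 and 0.841 CPM in PU.1-experiment controls and 35.6 and 33.3 CPM in PSPC1-experiment controls. Experiment, culture and library batch cannot be told apart here.

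Beyond the 10 genes, 119 further genes of the secretory pathway were listed by role in 10 lists, and 116 were tested in each table. After PSPC1 knockdown in MOLM13 27 of the 116 were higher and 57 lower (median log2 fold change -0.17), against 27.6% of all genes higher and 29.5% lower. After PSPC1 knockdown in OCIAML5 41 were higher and 40 lower (median 0.00), against 27.5% and 28.4% of all genes. After PU.1 knockdown 28 were higher and 59 lower (median -0.20), against 29.6% and 30.9% of all genes. The counts of the lists that follow are to be read against these shares, and no list was tested as a set. Rises and falls called largest here are those among called genes with at least 5 CPM in the higher group. The first list holds partners of BiP. Of 8 tested, 2 were higher and 3 lower in MOLM13, against 27.6% and 29.5% of all genes, so that the MOLM13 counts are near the background. In OCIAML5 after PSPC1 knockdown 5 were higher and 1 lower, against 27.5% and 28.4%, and the interaction was lower in MOLM13 for 6, against 18% of all genes. DNAJB11, a J-domain cochaperone of BiP, had the largest fall of the list in MOLM13 (40.4 ± 3.1 CPM in knockdown cells against 58.5 ± 1.3 in controls, -0.54 ± 0.081, adjusted p = 1e-07), while in OCIAML5 it was higher (0.28 ± 0.079, adjusted p = 0.0019). SDF2, a relative of SDF2L1, had the largest rise in both lines (0.29 and 0.72). After PU.1 knockdown the largest rise was that of DNAJC1 (0.96 ± 0.077) and the largest fall that of DNAJC10 (-0.43 ± 0.051), a disulfide reductase of the ER. HYOU1, an ER chaperone of the HSP110 family, and MANF, a secreted ER stress protein, were picked after their values were seen: in MOLM13 they fell after PSPC1 knockdown (-0.46 and -1.05), and in OCIAML5 they rose after PSPC1 knockdown (0.31 and 0.26) and fell after PU.1 knockdown (-0.22 and -0.73).

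Of 14 ER oxidoreductases, 10 were lower and 3 higher after PSPC1 knockdown in MOLM13, against 29.5% of all genes lower and 27.6% higher. In OCIAML5 11 were lower and 2 higher after PSPC1 knockdown, against 28.4% and 27.5% of all genes, and 11 were lower and 3 higher after PU.1 knockdown, against 30.9% and 29.6%. Their medians were -0.49, -0.43 and -0.34, beside 0.01, 0.02 and 0.02 over all genes. The largest falls were those of TXNDC5 in MOLM13 (4.58 ± 0.15 CPM in knockdown cells against 13.6 ± 1.1 in controls), of ERO1A, an oxidase that recharges isomerases, in OCIAML5 after PSPC1 knockdown (59.3 ± 3 CPM in knockdown cells against 122.7 ± 1.1 CPM in controls) and of TXNDC11 after PU.1 knockdown (17.9 ± 0.22 CPM in knockdown cells against 32 ± 0.9 CPM in controls). ERO1B, its relative, had the largest rise after PSPC1 knockdown in both lines (0.90 and 0.77), and P4HB, the founding protein disulfide isomerase, had it after PU.1 knockdown (0.77 ± 0.036, at 1282 ± 3.1 CPM in knockdown cells against 752 ± 0.6 CPM in controls). Of 8 genes of the glycoprotein folding cycle, 1 was higher and 4 lower in MOLM13, against 27.6% and 29.5% of all genes. In OCIAML5 2 were higher and 1 lower after PSPC1 knockdown, against 27.5% and 28.4%. After PU.1 knockdown 1 was higher and 4 lower, against 29.6% and 30.9%. UGGT1, the enzyme that tags misfolded glycoproteins, had the largest fall in both lines (-0.56 and -0.31). UGGT2 had the largest rise in all 3 knockdowns (0.39, 0.31 and 0.50), while MLEC fell most after PU.1 knockdown (-0.73). Of 13 other folding factors tested, 3 were higher and 3 lower in MOLM13, and 3 were higher and 4 lower after PU.1 knockdown. These counts are near the shares of all genes. In OCIAML5 5 were higher and 2 lower after PSPC1 knockdown, against 27.5% and 28.4%. Of this list FKBP7 fell most in MOLM13 (-1.60) and FKBP14 rose most there (0.49) and after PU.1 knockdown (0.61). CRELD2 rose most in OCIAML5 after PSPC1 knockdown (1.04), and CNPY3 fell most in OCIAML5 in both knockdowns (-0.40 and -0.74).

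Of 20 genes of ER-associated degradation, 6 were higher and 11 lower in MOLM13, against 27.6% and 29.5% of all genes. In OCIAML5 9 were higher and 6 lower after PSPC1 knockdown, against 27.5% and 28.4%, and 7 and 8 after PU.1 knockdown, against 29.6% and 30.9%. The 6 higher in MOLM13 and the 6 lower in OCIAML5 are near the background shares, and so are both counts after PU.1 knockdown. HERPUD1, a scaffold of the degradation complex and a known stress-response target, had the largest fall in both lines after PSPC1 knockdown (-1.20 ± 0.085 in MOLM13 and -1.28 ± 0.074 in OCIAML5). Its OCIAML5 levels were 40.2 ± 0.71 CPM in PSPC1 knockdown cells against 97.6 ± 3.7 in controls (SD). The PU.1-experiment controls, scaled within their own experiment, stood at 38.7 ± 1.9 CPM. ERLEC1, an ER lectin, rose most in MOLM13 (0.68), and SEL1L, the adaptor of the SYVN1 ubiquitin ligase, rose most in OCIAML5 after PSPC1 knockdown (0.99 ± 0.057) and after PU.1 knockdown (1.18 ± 0.049, at 168 ± 0.31 CPM in knockdown cells against 74.1 ± 0.7 CPM in controls). AUP1 fell most after PU.1 knockdown (-0.39). Of 18 translocon and oligosaccharyltransferase genes, 14 were lower and 1 higher after PU.1 knockdown, against 30.9% of all genes lower and 29.6% higher. After PSPC1 knockdown 10 were lower and 4 higher in MOLM13, against 29.5% and 27.6%, while the 6 lower and 5 higher in OCIAML5 are near the shares of 28.4% and 27.5%. SSR3 fell most in both lines (-1.34 and -0.76) and STT3A, a catalytic subunit of the oligosaccharyltransferase, after PU.1 knockdown (-1.10). SEC61B rose most in both lines (0.24 and 0.44) and SSR2 after PU.1 knockdown (0.27).

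Among the sensors, ERN1, which encodes IRE1, was higher in all 3 knockdowns, with log2 fold changes of 0.78 ± 0.14 in MOLM13, 0.73 ± 0.15 in OCIAML5 after PSPC1 knockdown and 0.79 ± 0.12 after PU.1 knockdown (adjusted p = 3.5e-06, 5.1e-05 and 6e-08). EIF2AK3, which encodes PERK, was lower in both lines after PSPC1 knockdown (-0.91 ± 0.17 and -0.97 ± 0.15, adjusted p = 6.8e-06 and 4.2e-07), and its change after PU.1 knockdown did not pass (0.07, adjusted p = 0.56). Of 6 sensor and protease genes 2 were higher and 2 lower in MOLM13, 3 and 2 in OCIAML5 after PSPC1 knockdown, and 3 and 0 after PU.1 knockdown. With 6 genes, shares of all genes of 27.6% higher and 29.5% lower in MOLM13, 27.5% and 28.4% in OCIAML5 and 29.6% and 30.9% after PU.1 knockdown correspond to about 2 genes each way. XBP1 fell and ERN1 rose in all 3 knockdowns, and whether these changes are related was not tested. The PERK-ATF4 arm of 8 genes had 6 lower and 1 higher in MOLM13, against 29.5% and 27.6% of all genes. It had 5 lower and 0 higher in OCIAML5 after PSPC1 knockdown, against 28.4% and 27.5%, and 1 lower and 5 higher after PU.1 knockdown, against 30.9% and 29.6%. The controls of the OCIAML5 experiments differed in this list before any knockdown: 7 of the 8 genes were lower in PU.1-experiment controls than in PSPC1-experiment controls (median -1.18), against 18.9% of all genes. The part of this difference in the opposite directions was not tested. CHAC1 had the largest fall after PSPC1 knockdown in both lines (-3.38 ± 0.22 in MOLM13 and -4.44 ± 0.20 in OCIAML5). It was at 1.74 ± 0.71 CPM in knockdown cells against 17.9 ± 2.5 CPM in controls of MOLM13. The OCIAML5 levels were 1.47 ± 0.51 CPM in knockdown cells against 33.1 ± 1.7 CPM in controls. PU.1-experiment controls, scaled within their own experiment, stood at 0.72 ± 0.17 CPM. PPP1R15A, which restarts translation, was up by 1.02 in MOLM13 and by 0.88 after PU.1 knockdown. PPP1R15B, its relative, fell after PU.1 knockdown (-0.40).

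Of 12 genes of ER exit and KDEL retrieval, 3 were higher and 4 lower in MOLM13, near the 27.6% and 29.5% of all genes. In OCIAML5 6 were higher and 2 lower after PSPC1 knockdown, against 27.5% and 28.4%, and 2 and 6 after PU.1 knockdown, against 29.6% and 30.9%. KDELR1, a receptor that returns chaperones such as BiP to the ER, rose most of the list in all 3 knockdowns (0.64, 0.62 and 0.26). SAR1A fell most in both lines (-1.16 and -0.84) and SEC24D after PU.1 knockdown (-1.03). Of 9 calcium-handling genes, 2 were higher and 4 lower in MOLM13, against 27.6% and 29.5% of all genes. In OCIAML5 4 were higher and 4 lower after PSPC1 knockdown, against 27.5% and 28.4%, and 1 and 7 after PU.1 knockdown (median -0.80), against 29.6% and 30.9%. ITPR3, a calcium release channel, fell by 2.20 on the log2 scale in MOLM13, and CALU fell most in OCIAML5 after PSPC1 knockdown (-1.26) and fell by 1.27 after PU.1 knockdown. ITPR1 rose most in MOLM13 (0.97), RCN2 in OCIAML5 (0.62) and ITPR2 after PU.1 knockdown (1.07).

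**Figure D5:**
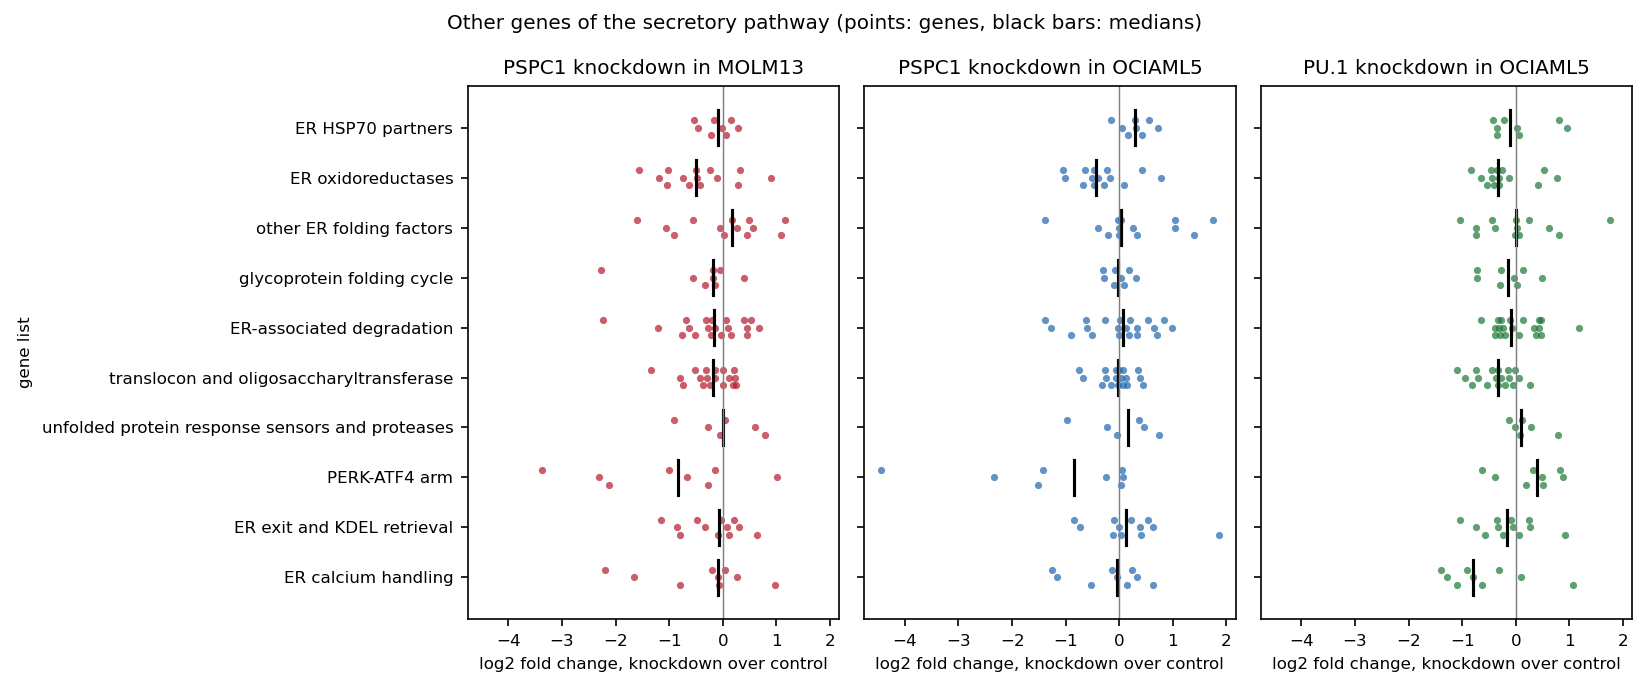
Log2 fold change of every tested gene of 10 secretory pathway lists after each knockdown, a point for each gene and a black bar for the list median. The oxidoreductase list has its median below zero in all 3 knockdowns, at -0.49, -0.43 and -0.34, and the PERK-ATF4 list has medians of -0.83 and -0.84 after PSPC1 knockdown and 0.41 after PU.1 knockdown.

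The genes whose levels followed HSPA5 and XBP1 most closely over the 12 libraries were sought among 10606 genes with a mean of at least 5 CPM, by Pearson's r of log2 CPM. These libraries fall into groups, so r describes group differences and no p is given. For HSPA5 they were TRIM37 (r = 0.955), ULK1 (0.953), LRFN3 (0.947), AMPD2 (0.942) and LRPAP1 (0.936). For XBP1 they were NDC1 (0.997), MCM7 (0.995), DUT (0.994), LDHA (0.994) and USP39 (0.993). None of the other 9 genes was among these 5 for either. MCM7 is a subunit of the replicative helicase and NDC1 a membrane nucleoporin. NDC1 was at 37.8 and 36.1 CPM in MOLM13 PSPC1 knockdown and 149 and 150 CPM in its controls, at 41.7 and 42.4 CPM in OCIAML5 PSPC1 knockdown and 145 and 149 CPM in its controls, and at 77.8 and 79 CPM in PU.1 knockdown and 150 and 156 CPM in its controls.

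On GRCh38 the genes lie, by GENCODE, on chromosome 9 at 125234853 to 125241330 (HSPA5), 7 at 108569568 to 108574850 (DNAJB9), 22 at 21642261 to 21644298 (SDF2L1), 12 at 103930107 to 103953645 (HSP90B1), 15 at 43746392 to 43773279 (PDIA3), 7 at 149003062 to 149028641 (PDIA4), 2 at 10783391 to 10837977 (PDIA6), 19 at 12938578 to 12944489 (CALR), 5 at 179678628 to 179730925 (CANX) and 22 at 28794555 to 28800597 (XBP1). Counting may mix genes that share sequence. PDIA6 shares 25.2% of its exon bases with ATP6V1C2, PDIA3 14.8% with ELL3 and 14.3% with AC018512.1, CALR 9.95% with AC092069.1 and DNAJB9 6.45% with THAP5, all on the opposite strand, and whether the counting used strand is unknown here. HSPA5, SDF2L1, PDIA4 and XBP1 have no such overlap. The processed copy PDIA3P1 held 1681 counts over the 12 libraries, against 97625 for PDIA3, and those of HSPA5 and XBP1 held 25 and 70.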

How the data were processed

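RNA was sequenced from 12 libraries of MOLM13 and OCIAML5 after TRIzol extraction and a stranded mRNA kit, per the labels' protocols. The authors deposited raw gene counts, 8 libraries in the PSPC1 table and 4 in the PU.1 table. The submitters' processing notes name GRCh38 and the tools STAR 2.7.10a, Trim Galore 0.6.7, DESeq2 1.36.0 and HTSeq 2.0.2. What each tool did, the annotation release and the strand setting are not given in the sources.

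Groups came from the sample titles. The analysis used edgeR 4.0.16 (R 4.3.3): filterByExpr, TMM scaling, quasi-likelihood F tests, and Benjamini-Hochberg adjustment over all genes tested, with a threshold of 0.05. The PSPC1 table was fitted as 4 groups, the PU.1 table as 2, and a joined table of the 8 OCIAML5 libraries served to compare the knockdowns. Intervals are at 95%. Biological coefficients of variation were 4.73%, 4.08% and 4.5%, and the variance between libraries of a group was 2.61 to 4.96 times that of counting. Replicate numbers are shared by the groups but did not pair the libraries: same-numbered deviations correlated at -0.02 to 0.04. Exon lengths and positions are from GENCODE on GRCh38, and promoters from RefSeq GRCh38.p14.

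The members, the lists and the rule for naming genes were chosen with earlier results of these data known. The rule names all 10 genes, PSPC1 and SPI1, the largest called rise and fall of each list per knockdown at 5 CPM or more in the higher group, and the 5 genes most like HSPA5 and XBP1. Alternatives were DESeq2 1.42.0, RLE factors, the libraries of a line alone, library size alone, no filter, a replicate block and leaving out each library. Figures were drawn with Python 3.11.15 and matplotlib 3.10.9.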

Additional observations from a re-analysis of the deposited data

Results flagged for a closer look

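The response to PSPC1 knockdown differed between the lines for 9 of the 10 genes, all lower in MOLM13, by an interaction test in edgeR's quasi-likelihood model with Benjamini-Hochberg adjustment. Over all genes 30.5% were called in that test, 18% lower. The 10 genes were chosen with earlier results of these data known, so their count is not independent evidence of a difference. On the log2 scale MOLM13 minus OCIAML5 was -1.27 for CALR, -1.06 for HSPA5, -0.96 for SDF2L1, -0.94 for PDIA4, -0.69 for HSP90B1, -0.68 for PDIA3, -0.45 for XBP1, -0.43 for PDIA6 and -0.31 for CANX. Medium, serum and growth factor differ between the lines as well, and their part was not tested.

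The response to PU.1 knockdown differed from that to PSPC1 knockdown in OCIAML5 for 7 of the 10 genes by the same kind of test, in which 45.6% of all genes were called. PU.1 minus PSPC1 was 0.89 for CALR, 0.64 for XBP1, -0.60 for HSPA5, -0.55 for SDF2L1, -0.50 for HSP90B1, -0.27 for PDIA3 and -0.21 for CANX. Of these 7 genes, CALR, XBP1, HSPA5, SDF2L1 and HSP90B1 were already higher in PU.1-experiment controls than in PSPC1-experiment controls, XBP1 with a call that is lost under the settings named above.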

How the results depend on the processing

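The 3 knockdown counts of called genes among the 10, and both interaction counts, stayed within 1.5 times of the reported ones under DESeq2, RLE factors, library size alone, no filter, the replicate block and each library left out. Leaving out a library gave 1 higher and 8 lower for PSPC1 knockdown in MOLM13, 4 higher and 3 to 4 lower in OCIAML5, and 3 to 4 higher and 6 lower for PU.1 knockdown. For control MOLM13 minus OCIAML5, 3 genes were higher with library size alone, and 3 to 5 higher and 0 to 1 lower with a library left out, the lowest of both without MOLM13 control replicate 1. Library size alone moved the median of all genes by 0.15 after PU.1 knockdown.

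Changes of sign all concerned values that had not passed, and the cause was not tested. SDF2L1 after PSPC1 knockdown in OCIAML5 was 0.0720 with library size alone and -0.17 to 0.15 with a library left out. In control MOLM13 minus OCIAML5, library size alone gave -0.0223 for PDIA3 and -0.0151 for XBP1, no filter gave 0.00240 for HSP90B1, and a library left out gave -0.0195 to 0.0180 for HSP90B1 and -0.24 to 0.00523 for DNAJB9. In PU.1 minus PSPC1, PDIA4 was -0.00633 with no filter and -0.00353 to 0.0634 with a library left out, and DNAJB9 -0.25 to 0.0752. Between the controls of the experiments, no filter gave 0.00523 for PDIA3 and 0.0173 for CANX.

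The replicate numbers do not pair the libraries. A replicate block ended the call of HSPA5 after PU.1 knockdown (0.10, adjusted p = 0.068) and of XBP1 between the control groups (0.14, adjusted p = 0.062), and no other call among the 10 genes in these comparisons. With 2 libraries in a group, a library left out leaves 1, which is assumed to vary like the others. DESeq2 moved 3 counts of the pathway lists, which hold 6 and 8 genes.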

Other observations

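The ER stress response element searched above occurred in 25 genes of the promoter table, 6 of them among the 10 described here, 2 in the other secretory pathway lists (CRELD2 and ERO1B) and 17 in neither. The 10 further genes that were tested were looked at after the matches were seen. After PSPC1 knockdown 3 were higher and 2 lower in MOLM13 (median log2 fold change 0.01), against 27.6% and 29.5% of all genes. In OCIAML5 4 were higher and 2 lower after PSPC1 knockdown (0.11), against 27.5% and 28.4%, and 2 were higher and 3 lower after PU.1 knockdown (-0.07), against 29.6% and 30.9%. These counts are near the background, and nothing is read from them about the element. Among these further genes TRIM5, EIF2A and SERP1 were called in the same direction in all 3 knockdowns. The share of all genes called so was not counted, so nothing is read from this either. TRIM5 was higher, with log2 fold changes of 0.43 ± 0.10 in MOLM13, 0.64 ± 0.10 in OCIAML5 and 0.94 ± 0.082 after PU.1 knockdown. EIF2A was lower (-0.28 ± 0.053, -0.53 ± 0.053 and -0.60 ± 0.049). SERP1, which encodes a stress-associated protein of the ER membrane, was lower in all 3 knockdowns, with log2 fold changes of -0.62 ± 0.048 in MOLM13, -0.63 ± 0.048 in OCIAML5 and -1.12 ± 0.045 after PU.1 knockdown (SE, n = 2 libraries a group). CRELD2, an ER protein induced by stress, was at 17.1 and 18.6 CPM in MOLM13 PSPC1 knockdown and 17.6 and 17.3 CPM in its controls, where the change was not called. In OCIAML5 it was at 42.4 and 40 CPM after PSPC1 knockdown against 19.4 and 20.7 CPM in controls. Its change after PU.1 knockdown was not called (-0.02, adjusted p = 0.83). ERO1B, the other listed gene with the element, was higher after PSPC1 knockdown in both lines (0.90 and 0.77) and lower after PU.1 knockdown (-0.47).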
